A study of Mus musculus with 7 samples.

Results

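Cluster 11 was a group of 134 macrophage-like cells from LLC tumor tissue that carried high RNA for the chains of complement C1q, for Folr2, which encodes a folate receptor, and for Mrc1, which encodes the mannose receptor CD206. Its members were all cells that the authors' clustering at resolution 1 placed in cluster 11, that came from the tumor tissue library and that had gene counts. They were 134 of the 1917 counted tumor tissue cells (6.99%, exact 95% Clopper-Pearson interval 5.89 to 8.22%) and of the 4290 counted cells of all 7 libraries. No cell of the cluster came from the other 6 libraries, and the limits given for them are what a count of 0 allows, set at 3 cells of the total. Those libraries were tumor-bearing blood (0 of 354 cells, which allows a share of up to 0.847%), tumor-bearing bone marrow (0 of 57, up to 5.26%), tumor-bearing spleen (0 of 579, up to 0.518%), naive blood (0 of 814, up to 0.369%), naive bone marrow (0 of 153, up to 1.96%) and naive spleen (0 of 416, up to 0.721%).

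The study read RNA and 47 surface antibody tags in the same CD11b-enriched cells of C57/Bl6 mice, using droplet capture with 3' gene counting. The tumor-bearing mice carried LLC, a transplantable Lewis lung carcinoma, at day 14, and the naive mice carried none. Cluster 11 and the cells it is set against, the other 1783 tumor tissue cells, share that strain, tumor, day, enrichment and library. The tumor tissue library is 1 sample, the labels do not say how many tumors it pooled, and nothing below has a replicate check, so no test is given and intervals cover counting error only.

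Macrophages that settle in tissues take up dying cells and debris through scavenger receptors, break them down in lysosomes and secrete C1q, the recognition part of the classical complement pathway. Blood monocytes that enter a tumor begin with a different set of genes, among them Ly6c2 and Plac8, and lose these as they mature into macrophages. Folr2, Mrc1, Cbr2, Fcrls and Pf4 are commonly read as marks of tissue-resident-type macrophages in mice, and division in place is one way such cells are known to maintain themselves.

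The RefSeq promoters (build GRCm38.p6) of 4 leading genes of the cluster are shown, 250 bases before the start of each gene. C1qb and C1qc stand next to each other on chromosome 4, and Fcrls and Mrc1 are markers outside complement. Capitals mark GAGGAA on either strand, letters found in the core of sites for the macrophage factor PU.1.
C1qb, chr4:136886201-136886450, minus strand: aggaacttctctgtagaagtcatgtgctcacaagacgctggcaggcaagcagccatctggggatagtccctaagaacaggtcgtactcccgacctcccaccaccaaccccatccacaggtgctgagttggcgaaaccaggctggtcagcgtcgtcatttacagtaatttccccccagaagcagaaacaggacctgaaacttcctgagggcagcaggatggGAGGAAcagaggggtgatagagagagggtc
C1qc, chr4:136892915-136893164, minus strand: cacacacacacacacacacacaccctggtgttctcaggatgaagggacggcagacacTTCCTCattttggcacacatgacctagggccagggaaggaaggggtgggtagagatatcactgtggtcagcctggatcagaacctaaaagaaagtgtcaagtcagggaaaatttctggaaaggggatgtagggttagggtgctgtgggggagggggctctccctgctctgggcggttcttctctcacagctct
Fcrls, chr3:87263525-87263774, minus strand: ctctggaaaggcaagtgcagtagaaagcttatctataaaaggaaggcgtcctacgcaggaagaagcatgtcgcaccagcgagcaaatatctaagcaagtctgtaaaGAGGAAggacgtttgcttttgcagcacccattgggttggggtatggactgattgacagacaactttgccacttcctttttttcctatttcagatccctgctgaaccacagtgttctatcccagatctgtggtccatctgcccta
Mrc1, chr2:14229164-14229413, plus strand: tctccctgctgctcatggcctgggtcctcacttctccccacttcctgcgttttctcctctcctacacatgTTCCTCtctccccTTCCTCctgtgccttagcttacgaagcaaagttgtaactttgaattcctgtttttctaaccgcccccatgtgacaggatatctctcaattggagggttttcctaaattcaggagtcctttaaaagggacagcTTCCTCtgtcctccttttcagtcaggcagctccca
The letters began 30 bases before the start of C1qb, 193 before that of C1qc and 144 before that of Fcrls, and occurred 3 times before Mrc1. Among 12 leading genes looked up, 11 were in the table with 15 promoters in all, and 6 of these promoters held the letters. Of all 32851 mouse promoters in the table, 23.3% did. The 4 promoters shown are among the 6, and no promoter of Folr2, Pmp22, Timp2, Cd81 or Gas6 held these letters. The letters TGCTGAC, the core of a MAF site, were in 1 of the 15 (a promoter of Pmp22) and in 3.81% of all promoters. These are matches of letters only, and C1qa was not in the table.

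The 8 markers given for the cluster (C1qa, C1qc, Folr2, Pf4, Cbr2, Fcrls, Mrc1 and Pmp22) were counted cell by cell. They were given for this cluster, which was drawn from the same RNA counts. Their presence therefore describes the cluster and does not test its label. At least 3 of the 8 were detected in 132 of 134 cells (98.5%) of cluster 11, against 403 of 1783 (22.6%) other tumor cells. When every cell was thinned to 5000 unique molecular identifiers (UMIs, counted RNA molecules), the shares were 90.3% in cluster 11 and 11.6% in the other cells. All 8 were detected in 61 cells of cluster 11 and in 2 of the others, and at 5000 UMIs per cell in 6 and 0. The authors' coarser clusterings set cluster 11 beside its nearest relatives. At resolutions 0.2 to 0.7 all 134 cells lay in a larger cluster with most or all of cluster 3, and at 0.7 that cluster of 536 cells also held 292 cells of cluster 3 and 109 of cluster 8. At resolution 0.8 they stood apart, with 127 of the 134 in a cluster of 131.

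These were the deepest cells of the tumor. Cluster 11 cells held between 6527 and 82333 UMIs with a median of 29673, against a median of 8624 and a highest value of 55744 in the other tumor cells, so the medians differed 3.44-fold. The 2 sets overlapped: 122 of 134 cluster 11 cells (91.0%) lay above the other cells' upper quartile of 10545, and 16 of the 1783 others reached the median of cluster 11. No other cluster of 50 or more cells was close, with medians between 8231.5 in cluster 5 and 10695 in cluster 17. With 6.99% of the cells, cluster 11 supplied 20.4% of the tumor library's RNA, 4246291 of 20844058 UMIs.

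Antibody tags were higher still. The median was 7423 tags per cell in cluster 11 and 1546 in the other tumor cells, a 4.80-fold difference, and over the 134 cells UMIs and tags went together (Spearman rho 0.760; 0.299 over the 1783 others, as descriptions over cells that share a library). The median number of genes detected was 5072 in cluster 11 and 2385 in the others, but at 5000 UMIs per cell it was 1954 against 1754, so the ratio was 2.13 as counted and 1.11 at equal depth. The mitochondrial share had a median of 3.81% in cluster 11 and 3.30% in the others. Of the 38 tumor cells in the highest 2% by UMIs, 35 belonged to cluster 11. No doublet caller was run, and the part of doublets in these totals was not tested. The given markers were within 2-fold between deeper and shallower cells, but some other genes were not. C1qa stood at 3065 UMIs per 1000000 (CPM) in the 67 cluster 11 cells above their median depth and 3116 CPM in the 67 at or under it, and Folr2 at 209 and 239 CPM. Fcrls was at 222 and 171 CPM, higher in the deeper cells, and Pf4 at 749 and 1055 CPM, higher in the shallower ones. Of 5689 genes measured in these 2 sets, 56 (0.984%) were 2-fold or more higher in the deeper cells and 14 (0.246%) lower.

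**Figure D1:**
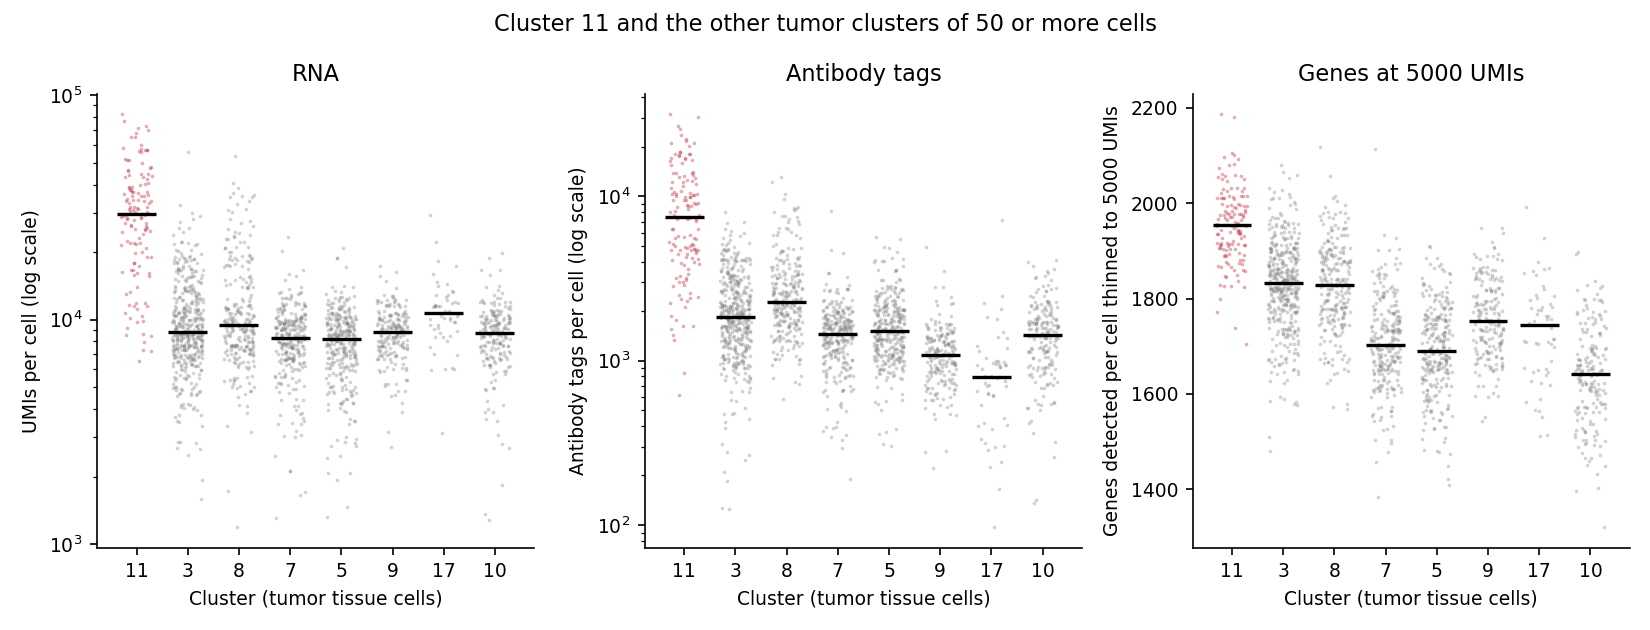
UMIs per cell, antibody tags per cell (both on log scales) and genes detected at 5000 UMIs per cell, for cluster 11 (red) and the other tumor clusters of 50 or more cells (grey); each point is a cell and each bar a median. Cluster 11 has medians of 29673 UMIs, 7423 tags and 1954 genes, the highest of the 8 clusters in each panel, and its cells overlap those of clusters 3 and 8 in range.

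To compare RNA, UMIs were summed over the cells of each set and scaled to CPM, so that a cell's depth does not by itself raise a gene. A gene counted as measured with at least 30 UMIs in the 2 sets together and 20 CPM in one of them, and a difference of 2-fold or more was counted. Of 5590 measured genes, 343 (6.14%) were higher and 161 (2.88%) lower in cluster 11 than in all other tumor cells, and 5086 were within 2-fold. The median log2 ratio over all measured genes was 0.16. Clusters were drawn from the same RNA counts, so these counts describe the cluster and do not test it.

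The 3 C1q genes, which encode the A, B and C chains of the C1q molecule, were the most abundant of the marks. C1qa ran from 0 through a median of 29.3 to 118 UMIs per 10000 over the cells of cluster 11, and from 0 through 0.553 to 83.6 over the other tumor cells. The summed level of C1qa was 3080 CPM in cluster 11 and 441 CPM in the others, 6.98-fold higher (95% interval 6.78 to 7.18). C1qb stood at 3451 and 634 CPM (5.45-fold higher) and C1qc at 1911 and 294 CPM (6.50-fold higher). The rest of the tumor was not uniform: C1qa was at 1138 CPM in cluster 8 and 669 CPM in cluster 3, and between 53.6 and 113 CPM in the other 5 clusters of 50 or more cells. In the non-tumor libraries it was at 8.86 CPM. All 3 genes were therefore more than 2-fold above every other tumor cluster, with cluster 8 the next. At 5000 UMIs per cell C1qa was detected in 93.3% of cluster 11 cells, 36.6% of the others and 25.9% of cluster 17, whose leading genes are those of dendritic cells, so a share near 25.9% cannot be told from free RNA in the droplets. Of the other complement genes, 9 were measured and only C3, the central component, passed 2-fold, at 80.1 CPM in cluster 11 and 201 CPM in the others (2.51-fold lower).

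Fcrls, an Fc receptor-like scavenger gene, had the widest gap of the given markers. Its level was 207 CPM in cluster 11 and 9.10 CPM in the other tumor cells, 22.7-fold higher (19.1 to 27.2), and no other cluster of 50 or more cells exceeded 19.99 CPM. Cbr2, a carbonyl reductase gene, was at 210 and 13.7 CPM (15.3-fold higher), and Pmp22, which encodes a membrane protein best known from myelin, at 109 and 7.11 CPM (15.3-fold higher). Folr2 was at 218 and 17.9 CPM (12.2-fold higher), with 87.3% of cluster 11 cells and 10.4% of the other tumor cells holding a UMI. Mrc1 was at 348 and 49.3 CPM (7.06-fold higher). Pf4, a CXC chemokine gene named for platelets, was at 840 and 135 CPM (6.23-fold higher). Of the 8 platelet and megakaryocyte markers only Pf4 passed the minimums, and Gp9, Gp1bb, Gp1ba and Gp6 had no UMI in cluster 11. Ppbp, a platelet chemokine gene, fell just short, with 78 UMIs (18.4 CPM) in cluster 11 and 80 UMIs (4.82 CPM) in the other tumor cells, and Itga2b and Treml1 had 1 UMI each in cluster 11. Within cluster 11 Ppbp was at 24.9 CPM in the deeper cells and 3.15 CPM in the shallower ones, and the part of platelets in the level of Pf4 was not tested.

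These markers were uneven from cell to cell. Folr2 ran from 0 to 30 UMIs per cell with a median of 6, Mrc1 from 0 to 52 with a median of 7, and Pf4 from 0 to 236 with a median of 13.5. Cbr2 was found in 94 of the 134 cells and Fcrls in 96, with no UMI in the other 40 and 38. Depth did not order them: over the 134 cells the summed markers per 10000 had a Spearman rho of 0.111 with UMIs, and C1q and the other given markers had one of 0.135 with each other.

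Most measured genes of the resident-type macrophage list were high. Of its 22 measured members 18 were higher in cluster 11 than in the other tumor cells, where 6.14% of all measured genes were. None was lower, and the list's median log2 ratio was 1.88. The given markers are 6 of the 22, and without them 12 of 16 were higher. Some members, such as Gas6 and Fxyd2, passed the minimum of 20 CPM only through cluster 11. With no low-count minimum, 25 of 34 members were higher and 4 lower. Set against the 2 clusters most like cluster 11, fewer of the measured members were higher. These were 13 of 22 over cluster 3 and 11 of 22 over cluster 8, with none lower in either. Beyond the given markers, 5 members were at least 2-fold above both. Stab1, a scavenger receptor that binds apoptotic cells, was at 207 CPM in cluster 11 and 38.4 CPM in the other tumor cells (5.39-fold higher). Gas6, which bridges dying cells to the receptors that engulf them, was at 41.7 and 1.45 CPM (28.8-fold higher) and was detected in 58 of 134 cells. Fxyd2, a regulator of the sodium pump, was at 43.6 and 1.93 CPM (22.6-fold higher), and Ltc4s, a leukotriene synthesis gene, at 146 and 21.03 CPM (6.93-fold higher). Adgre1, the F4/80 gene, was not one of the 5. It was at 266 and 113 CPM (2.35-fold higher) and did not reach 2-fold over cluster 8. Other genes used to define resident macrophages were nearly absent. Timd4 had no UMI in any cluster 11 cell, Lyve1 was found in 5 cells and Cd163 in 12. Csf1r, the receptor gene for the main macrophage growth factor, was within 2-fold at 612 and 521 CPM.

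**Figure D2:**
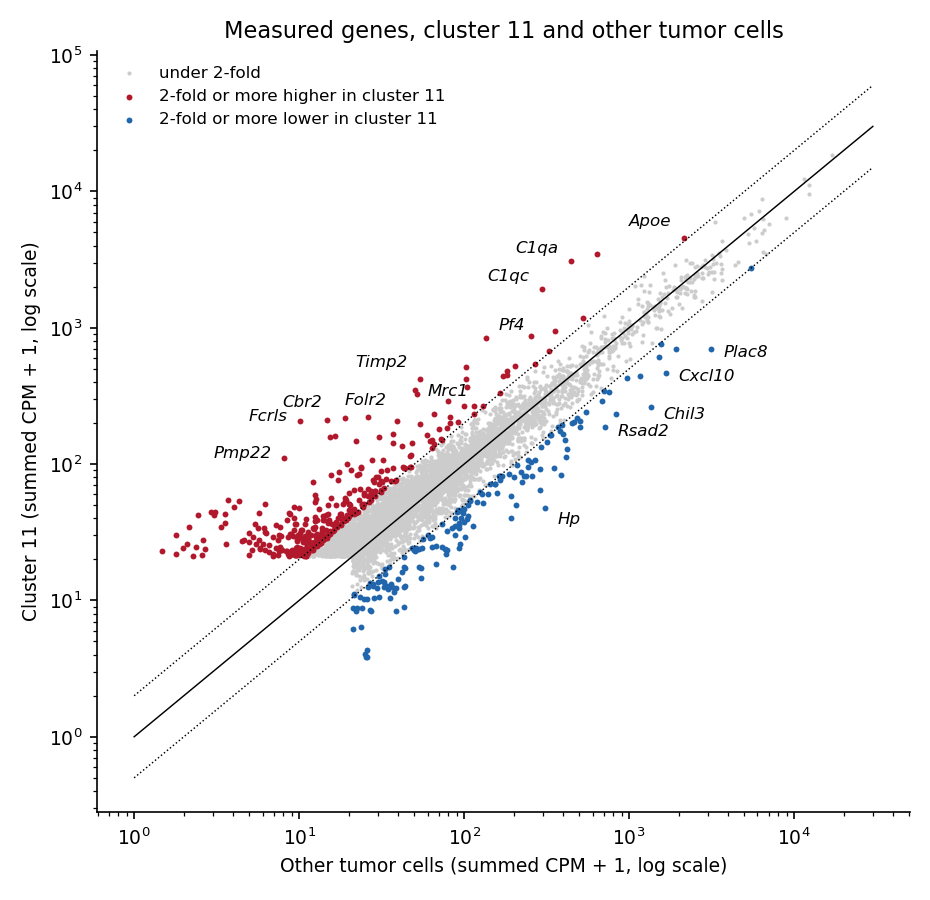
Summed CPM + 1 of each measured gene in the other tumor cells (horizontal) and in cluster 11 (vertical), both on log scales; red and blue points are the 343 higher and 161 lower genes, the solid line marks equal levels and the dotted lines 2-fold. The C1q genes, Pf4, Mrc1, Folr2, Cbr2 and Fcrls lie above the band and Hp, Plac8, Chil3 and Cxcl10 below it.

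A minority of uptake and lipid genes were higher. Of 12 measured genes for apoptotic cell uptake 4 were higher (Gas6, Stab1, Lrp1 and Abca1), of 16 lipid-handling genes 5, and of 30 lysosome genes 3, where 6.14% of all measured genes were. Against other tumor cells of similar depth the lipid count was 2 and the lysosome count 1. The uptake count was again 4 of 12 there, although Lrp1 no longer passed 2-fold. Apoe, an apolipoprotein gene, was at 4525 CPM in cluster 11 and 2150 CPM in the other tumor cells (2.10-fold higher). Pltp, a phospholipid transfer gene, was at 518 and 102 CPM (5.10-fold higher), and Trem2, a lipid-sensing receptor gene, at 524 and 202 CPM (2.59-fold higher). Apoe and Trem2 were not particular to the cluster: cluster 3 had 3418 CPM of Apoe and 386 CPM of Trem2, and cluster 8 had 3611 and 307 CPM. Cd63, a lysosomal tetraspanin gene, was at 420 and 102 CPM (4.11-fold higher), and Timp2, an inhibitor of matrix metalloproteinases, at 417 and 52.8 CPM (7.89-fold higher). Fcgrt, the Fc receptor that recycles IgG, was at 93.7 and 22.8 CPM (4.12-fold higher), while the activating receptor genes Fcgr1, Fcgr3 and Fcgr4 were within 2-fold.

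Chemokines that draw monocytes were partly higher, beside 6.14% of all measured genes. Of 6 measured genes 3 passed 2-fold: Ccl8, at 72.8 CPM in cluster 11 and 11.2 CPM in the other tumor cells (6.49-fold higher), Ccl12, at 369 and 104 CPM (3.57-fold higher), and Ccl7, at 866 and 252 CPM (3.43-fold higher). Ccl7 and Ccl12 were as high in cluster 8, at 820 and 330 CPM. Ccl8 had 10.6 CPM in cluster 8 and 41.1 CPM in cluster 10, the next highest, and its UMIs sat in 41 of the 134 cells with up to 67 in 1 cell. The growth factor genes Pdgfb (83.1 and 22.1 CPM, 3.76-fold higher) and Pdgfa (32.03 and 9.22 CPM, 3.47-fold higher) accompanied them. No measured member passed 2-fold in either direction among 22 hypoxia and glycolysis genes, 40 respiratory chain genes, 6 MHC class II genes and 13 MHC class I genes.

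Monocyte genes were low. Of 16 measured monocyte identity genes 11 were lower in cluster 11 than in the other tumor cells and none was higher, with a median log2 ratio of -1.32. Of all measured genes 2.88% were lower. Plac8 had 703 CPM in cluster 11 and 3125 CPM in the other cells (4.44-fold lower), Chil3 263 and 1347 CPM (5.13-fold lower), and Hp, the haptoglobin gene, 46.9 and 307 CPM (6.56-fold lower). Ly6c2 was at 608 and 1516 CPM (2.49-fold lower). Ccr2, the receptor with which monocytes enter inflamed tissue, was within 2-fold at 584 and 645 CPM and was detected in 99.3% of cluster 11 cells. At the nearest cluster this contrast was small: against cluster 3, Plac8 was 1.31-fold lower, Ly6c2 1.34-fold lower and Hp 1.94-fold lower. Of 13 monocyte identity genes measured against cluster 3, 1 was lower (0.394% of all genes were). Against other tumor cells of similar depth 5 of 14 were lower (1.89% of all genes were).

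Interferon genes depended on the cells they were set against. Against all other tumor cells, 21 of 28 measured type I interferon genes were lower in cluster 11 and none was higher. Of 14 interferon-gamma targets 8 were lower and none higher, where 2.88% of all measured genes were lower. Against cluster 8 all 28 type I genes were lower (196 of 5599 genes, 3.5%, were lower in that comparison). Against cluster 3, of 26 measured type I genes, 10 were higher and none lower (218 of 5587 genes, 3.9%, were higher). Rsad2, an antiviral enzyme gene, had 185 CPM in cluster 11, against 29.7 CPM in cluster 3, 875 CPM in cluster 8 and 4308 CPM in cluster 10. Cxcl10 had 466 CPM in cluster 11, against 167, 2638 and 8699 CPM in the same 3 clusters. For both genes cluster 11 lay above cluster 3 and below cluster 8.

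**Figure D3:**
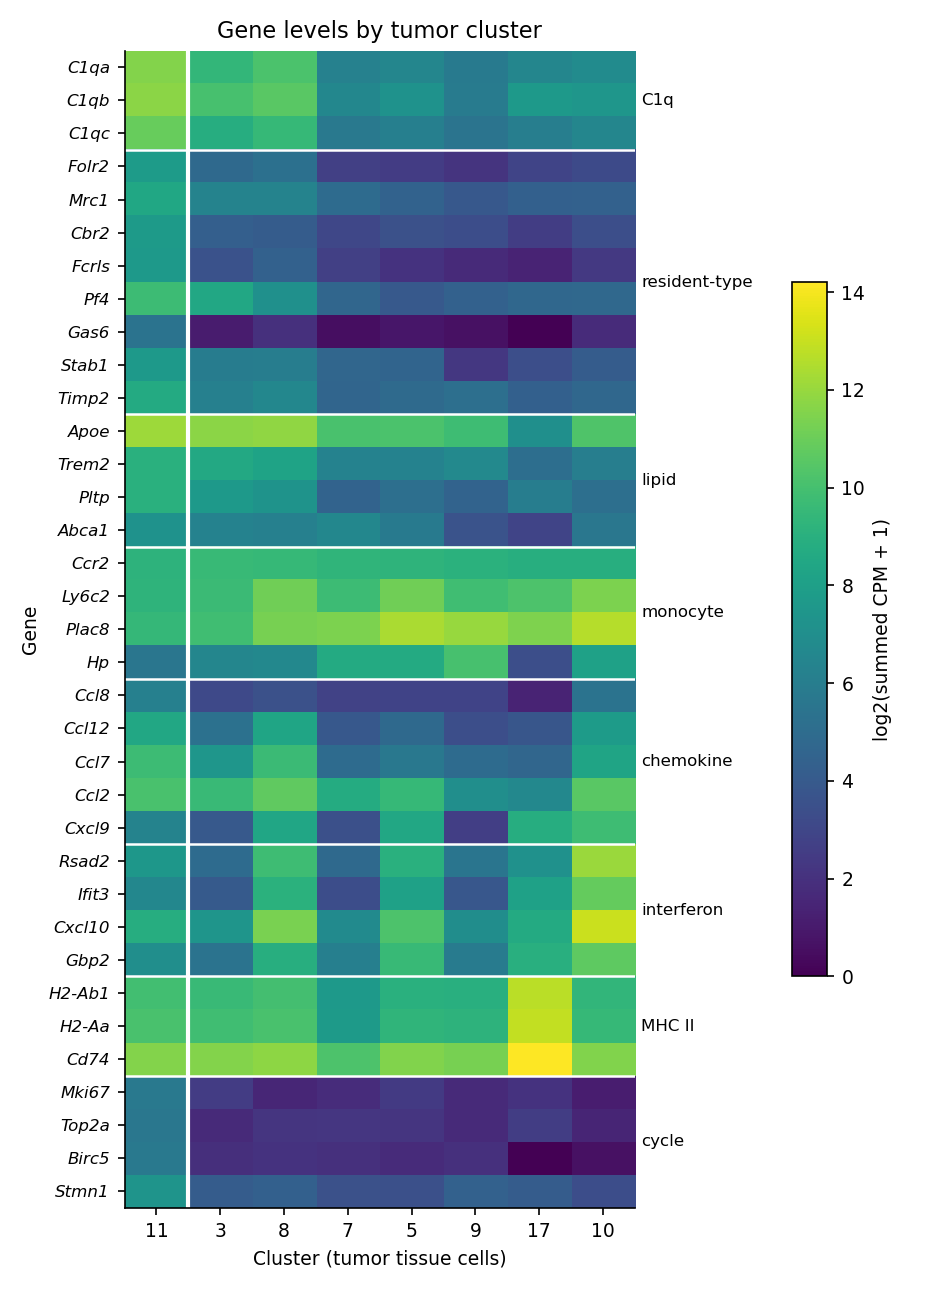
Levels of named genes as log2(summed CPM + 1) in cluster 11 (left of the white line) and 7 other tumor clusters ordered by their likeness to it. C1q and resident-type genes are brightest in cluster 11, interferon genes in cluster 10, MHC class II genes in cluster 17 and cell cycle genes in cluster 11.

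Cluster 3 and cluster 8 were the most like it, with a Pearson r of 0.968 and 0.952 across 5590 genes (log2 of CPM + 10, genes not being independent replicates); the other 5 ranged from 0.857 to 0.911. Over cluster 3, 218 genes were higher and 22 (0.394%) lower. Over cluster 8, 262 (4.68%) were higher and 196 lower. Folr2 was 7.88-fold higher (6.51 to 9.61) in cluster 11 than in cluster 3 and 5.87-fold higher (4.83 to 7.19) than in cluster 8, Fcrls 19.3-fold and 10.3-fold, and Mrc1 4.396-fold and 4.23-fold. C1qa was 4.60-fold higher than in cluster 3 and 2.71-fold higher than in cluster 8. Pf4 was 2.31-fold higher than in cluster 3 and 6.15-fold higher than in cluster 8. Over the 5 less like clusters more genes were higher: 14.7% over cluster 7, 15.9% over cluster 5, 14.1% over cluster 9, 15.2% over cluster 17 and 26.8% over cluster 10, while 3.39%, 5.19%, 4.69%, 5.89% and 9.03% were lower in the same order. In all, 108 genes were at least 2-fold above each of the 7 other clusters of 50 or more cells and none was 2-fold below each. The 15 of these with the widest margin were of 2 kinds. Cbr2, Fcrls, Gas6, Fcna (a lectin of the complement system), Col14a1 (a collagen) and Cspg4 (a proteoglycan) are not cell cycle genes, and Mki67, Top2a, Birc5, Ube2c, Cdk1, Tk1, Ccna2, Cenpf and Rrm2 are. Cspg4 and Col14a1 were low, at 22.1 and 20.96 CPM in cluster 11 and 0.482 and 0.783 CPM in the other tumor cells, so that small changes take them under the minimum of 20 CPM. Without the cell with the most UMIs of each gene both stood at 19.3 CPM and so were not counted, while the folds were 45.8 for Cspg4 and 32.1 for Col14a1.

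Cells rich in cell cycle transcripts were far more frequent in this cluster than in the rest of the tumor. With a cell called cycling when it held at least 3 UMIs over 12 cell cycle genes, 37 of 134 cells (27.6%, 20.2 to 36.0%) of cluster 11 and 7 of 1783 (0.393%, 0.158 to 0.807%) other tumor cells were cycling. Depth raises such a count, so the same was done at 5000 UMIs per cell, where 17 of 134 (12.7%, 7.57 to 19.5%) cluster 11 cells and 0 of 1593 others passed (which allows up to 0.188%). Among the 58 other tumor cells of similar depth, whose UMIs lay between the quartiles of cluster 11, 1 passed. The non-tumor libraries had 10 of 2373 cells (0.421%).

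The 12 genes were concentrated in few cells. In cluster 11, 16 cells held 20 or more of their UMIs, and the highest held 235. Of all 1701 such UMIs, 1640 (96.4%) lay in the 37 cycling cells. Those cells were chosen by these same genes and each other cell held fewer than 3, so that share was largely set in advance. Mki67, the classic division marker, was at 52.5 CPM in cluster 11 and 3.31 CPM in the other tumor cells (15.8-fold higher), from 24 and 49 cells. Top2a, which untangles replicated chromosomes, was at 47.8 and 3.01 CPM, and Stmn1, which destabilises microtubules, at 160 and 15.5 CPM. Of 19 measured proliferation genes 16 were higher, where 6.14% of all measured genes were. In the cluster 11 cells at or under their median UMIs 10 were measured and 7 higher. Members such as Mki67 and Top2a passed the minimum of 20 CPM only through cluster 11, so their call was largely set in advance. With no low-count minimum 21 of 24 were higher, and with minimums of 100 UMIs and 50 CPM 4 of 6 were. The cycling cells kept the markers of the cluster: C1qa was at 3210 CPM in the 37 and 3005 CPM in the other 97. They were also deeper, with medians of 37085 UMIs and 12195 tags against 26877 and 6292. Leaving the 37 out, 260 of 5516 measured genes (4.71%) were higher and 145 (2.63%) lower than in other tumor cells, of which 229 and 132 were shared with the counts above, and C1qa stayed 6.81-fold, Folr2 11.9-fold and Fcrls 19.3-fold higher.

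MHC class II varied widely among the cells. H2-Ab1, H2-Aa and H2-Eb1, which encode the chains that present peptides to CD4+ T cells, had summed levels within 2-fold of the other tumor cells (961 and 882 CPM for H2-Ab1). Within cluster 11 the class II genes together ran from 0.752 through a median of 25.6 to 375 UMIs per 10000. They were under 10 in 48 cells and 100 or more in 25. Cluster 17, the dendritic-like cells, ran from 41.5 through 445 to 942, so even the highest cells of cluster 11 stayed below its median. The surface antibody for these proteins, I-A/I-E, followed the RNA over the 134 cells, with a Spearman rho of 0.788 between tags per 10000 and class II UMIs per 10000 (0.490 over the other tumor cells). Class II also went with interferon-gamma targets (rho 0.331) and weakly with depth (0.252), all as descriptions over cells of 1 library.

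**Figure D4:**
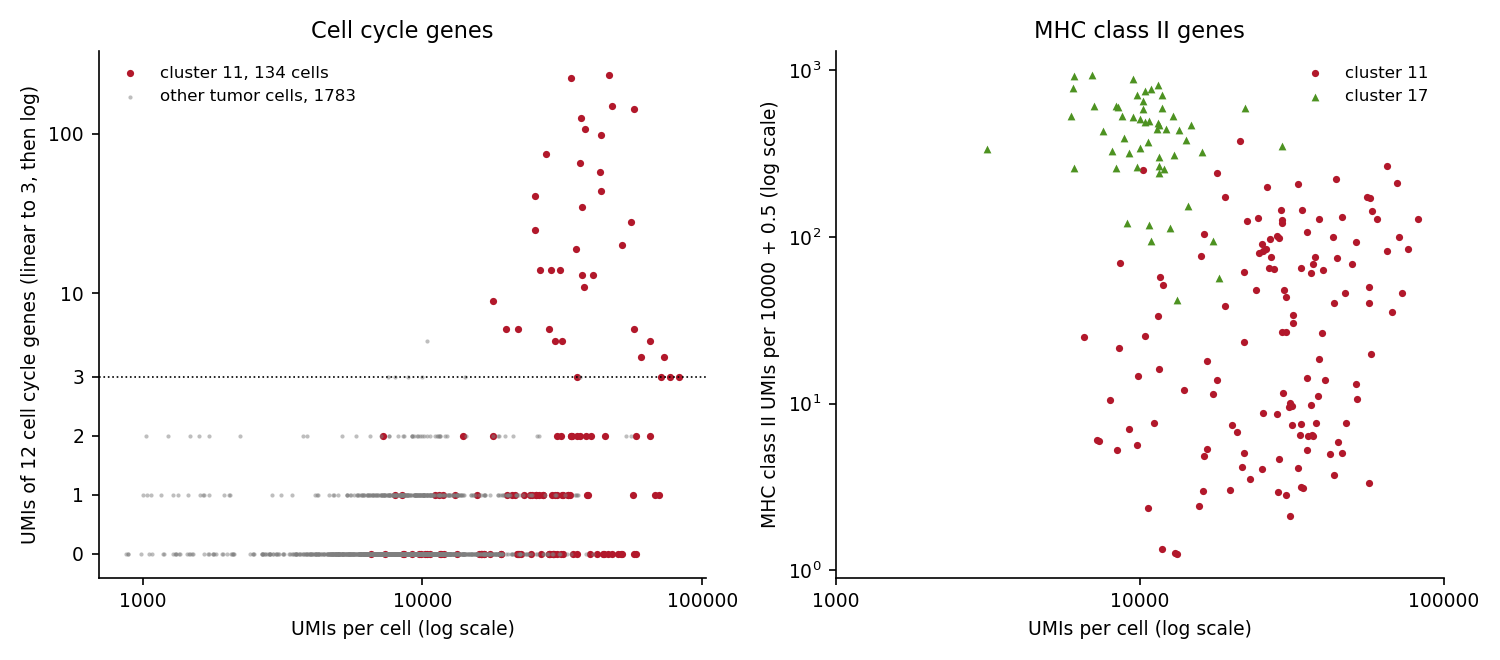
Left, UMIs of 12 cell cycle genes against all UMIs per cell in cluster 11 (red) and other tumor cells (grey), with the minimum of 3 UMIs dotted; right, MHC class II UMIs per 10000 + 0.5 against UMIs per cell in cluster 11 (red) and cluster 17 (green triangles). The 37 cycling cells of cluster 11 hold between 17907 and 82333 UMIs, and its class II values spread from 0.752 to 375 per 10000 across the range of depth.

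The antibody tags, which were read beside the RNA in the same cells, were compared per cell and per 10000 tags. Per cell, the median count of every one of the 47 antibodies was over 2-fold higher in cluster 11 than in the other tumor cells, by 2.05 to 16.6-fold with a median of 5.5. This held for proteins of other lineages too: Ly-6G, a neutrophil protein, had a median of 52 tags in cluster 11 and 9 in the others. Against the 58 other cells of similar depth the ratios were 1.10 to 2.09, and 3 of 47 reached 2-fold. Per 10000 tags, which removes the cell's total, 1 antibody (2.13%) was over 2-fold higher and 1 (2.13%) over 2-fold lower, and 38 of 47 ratios lay between 0.8 and 1.25.

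The antibody to CD16/32, the low-affinity Fc gamma receptors, was the higher one. It took between 393 and 2114 tags per 10000 over the cells of cluster 11 with a median of 1079, while the other cells had a median of 338 and an upper quartile of 532. The sums were 1148 and 469 per 10000, a ratio of 2.45, and 1.47 against cells of similar depth. Its RNA did not show that size, since Fcgr3 differed 1.03-fold and Fcgr2b 1.40-fold. Ly-6C, the monocyte protein, was the lower one, at 793 and 1892 per 10000, a ratio of 0.419, and 0.664 against cells of similar depth. Its RNA Ly6c2 was 2.49-fold lower. CD18, a leukocyte integrin chain, followed with 196 and 122 per 10000 (ratio 1.61), CD49f, an integrin chain encoded by Itga6, with 126 and 87.5 (ratio 1.44; RNA 4.58-fold higher), and CD206 with 134 and 105 (ratio 1.27).

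Protein and RNA did not scale alike. CD206 is the product of Mrc1, whose RNA was 7.06-fold higher, and CD81 tags had a ratio of 1.26 beside RNA 8.87-fold higher. CD36, a scavenger receptor, had fewer tags per 10000 in cluster 11 (281 and 432, ratio 0.651) while its RNA Cd36 was at 30.9 and 10.3 CPM (2.99-fold higher). That RNA difference lay in the deeper cells, with Cd36 at 39.0 CPM in the deeper and 11.8 CPM in the shallower cells of cluster 11, and it was 1.75-fold against other cells of similar depth. F4/80 had a ratio of 1.12, the same as the median over the 47 antibodies, and Adgre1 RNA 2.35-fold. Ly-6G, the neutrophil protein, had a ratio of 1.19. Shares per 10000 depend on the other antibodies in the total. With Ly-6C, CD11b and CD16/32 left out of that total, an unplanned alternative, F4/80 stood at 1.03, CD206 at 1.17 and CD81 at 1.16. CD18 stood at 1.48, CD49f at 1.33 and CD16/32 at 2.25 there, while CD36 and Ly-6C had lower ratios than before. Over the cells, CD206 tags and Mrc1 UMIs per 10000 had a rho of 0.301 in cluster 11 and 0.0631 in the others. The tags carry background binding that was not measured here, and its part in these ratios was not tested.

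**Figure D5:**
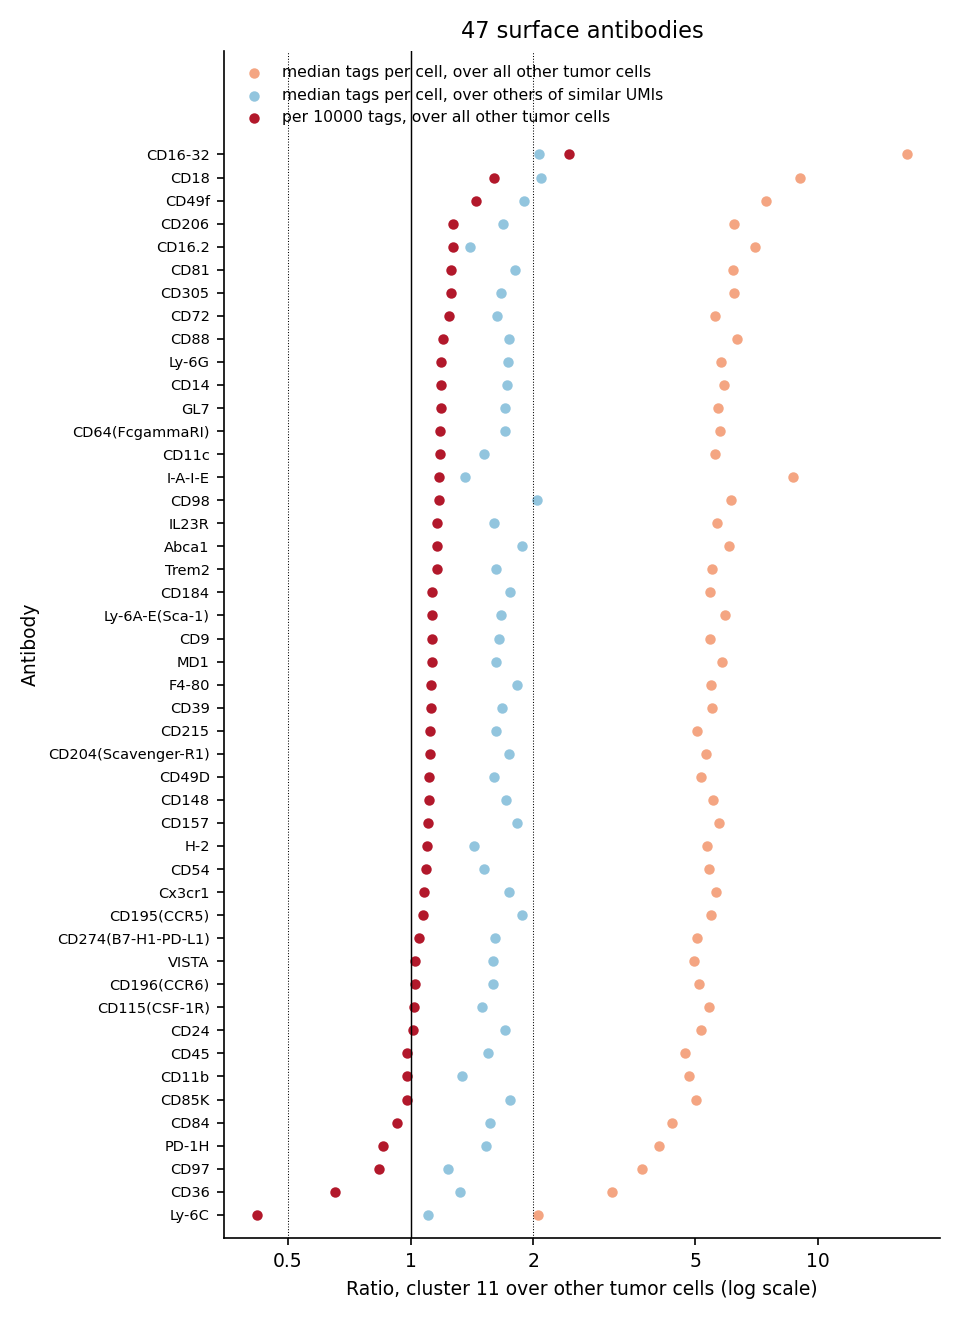
Ratio of cluster 11 over other tumor cells for each of 47 antibodies on a log scale, as median tags per cell over all others (orange), the same over the 58 others of similar depth (blue) and summed tags per 10000 over all others (red); dotted lines mark 2-fold. Median tags are 2.05 to 16.6-fold higher for all 47, whereas per 10000 only CD16/32 and Ly-6C pass 2-fold.

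At matched depth the leading RNA differences were smaller. Set against the 58 other tumor cells of similar depth, of which 32 came from cluster 8 and 20 from cluster 3, 196 of 5666 measured genes (3.46%) were higher and 107 (1.89%) lower. Cbr2 stayed 13.5-fold, Fcrls 7.09-fold, Pmp22 7.32-fold, Pf4 5.97-fold, Folr2 5.64-fold, Mrc1 3.89-fold, C1qa 2.42-fold and C1qb 2.04-fold higher. Apoe (1.4975-fold) and Trem2 (1.55-fold) no longer passed. Neither did Adgre1, Arg1, Cd36, Cx3cr1, Cxcl14, Cebpa, Lrp1, Nr1h3, Pdgfa, Pdgfb, Siglec1 and Tfrc or, among the lower genes, Ly6c2, Vcan, C3, Casp4, Clec4e and Il1a. Cd209a lost its call there through the minimums for a measured gene, and its fold size stayed at 2.46 or more under every alternative. Of the 66 higher and 53 lower genes that were named or on a list, 20 and 16 lost their call. The depth-matched cells belong mostly to the 2 nearest clusters, so depth and cluster cannot be told apart in that comparison.

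Defining genes of other cell types were mostly low or absent. The red cell markers had no UMI in cluster 11, 7 of 9 T and NK cell markers had none, and fibroblast, endothelial and carcinoma markers summed to 0.141, 0.108 and 0.174 UMIs per 10000, against 0.146, 0.107 and 0.0988 in the other tumor cells. Conventional dendritic cell markers summed to 0.358 and 0.646 per 10000. Plasmacytoid dendritic cell markers summed to 5.68 and 6.47 per 10000, nearly all from Bst2 and Tcf4, which other cell types express too, while Siglech, Ly6d and Klk1 had no UMI in cluster 11. Neutrophil markers summed to 3.41 and 3.73 per 10000 and were carried by few cells, 5 of which held at least 100 such UMIs and the highest 451 of the cluster's 1447. C1q had no UMI in 2 of the 134 cells. The part of these cells in the results was not tested.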

How the data were processed

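Per the labels' protocols, RNA and antibody-tag libraries were made from single cells with 3' chemistry, and the submitters' processing notes list Cell Ranger and mm10, with no version or annotation given in the sources used here. Raw UMI counts were deposited by the authors per gene, beside antibody-tag counts for 47 antibodies and metadata on 4527 cells that give, per the file headers, a cluster, its resolution and a mitochondrial fraction. The 237 cells of the metadata without counts were not used, and cluster 11 had none. Clusters are the authors' own, made per the file headers on the RNA graph. No further filter and no doublet caller was applied; 2 barcodes occurred in 2 libraries, neither in cluster 11. Library totals ran from 617821 to 20844058 UMIs.

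UMIs were summed per set of cells and scaled to CPM (Python 3.11.15, numpy 2.4.6, scipy 1.17.1). Fold intervals are exact conditional binomial (95%), and PCR and cell-to-cell spread are not in them. Cells were thinned without replacement to 5000 UMIs, leaving out 190 shallower other tumor cells and none of cluster 11. List medians are of log2 ratios with a pseudo-count of 1 CPM. The script was tested on simulated counts. Members, the 30 gene lists and the 15 marker sets were chosen with earlier results of these data known. Named genes were the 12 highest and 12 lowest ratios (pseudo-count of 10 CPM), the 15 with the widest margin over every other cluster, the given markers and up to 5 members of each list, with unnamed gene models and genes of mitochondria, ribosomes, immunoglobulins, haemoglobin and the sex chromosomes kept out of the ranking. Other genes were named after their values were seen. Promoters came from the RefSeq table of GRCm38.p6.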

Additional observations from a re-analysis of the deposited data

How the results depend on the processing

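No paired analysis was possible because each group was 1 library, and for the same reason no replicate could be left out. Against the 343 higher and 161 lower genes, thinning every cell to 5000 UMIs gave 524 higher. Setting cluster 11 against the other tumor cells of similar UMIs gave 196 higher and 107 lower. Without a low-count minimum 2493 were higher and 1901 lower, and with minimums of 100 UMIs and 50 CPM 123 were higher; 68.1% of the counted genes were higher in the main comparison, 56.7% without a minimum and 52.8% with the stricter one. Of the 60 list members higher and 49 lower, these 2 filters left 100 and 37 higher, and no minimum left 89 lower. The ratio of median genes per cell was 2.13 and at 5000 UMIs 1.11. For the antibodies, 47 were higher and 0 lower by unscaled median counts, and per 10000 tags 0 and 0 were against cells of similar UMIs. Equal weight per cell, an equal mix of clusters, leaving out cluster 13, the deeper cells of cluster 11, the 2% of cells with the most UMIs or each gene's top cell, and another scaling total moved none of the 4 RNA counts (all genes and list members, each direction) by over 1.5 times. Single lists moved more: proliferation had 7 higher, not 16, in the shallower cells of cluster 11, and with the equal mix lysosome had 7, not 3, arginine and wound-type 3, not 1, and matrix 6, not 1. Lysosome had 5 higher once the 2% deepest cells were dropped. Of 83 named genes past 2-fold, 39 kept their call under all 12 alternatives. Mgl2 turned to a ratio of 0.629 against cells of similar UMIs, where the cause was not tested. Without the 37 cycling cells, an alternative added after seeing the data, Birc5 stood at 0.822, Cenpf at 0.949, Mki67 at 0.336, Tk1 at 0.974 and Top2a at 0.864, since those cells were chosen by such genes. Depth limits the sparse genes: 3 UMIs are 0.706 CPM in cluster 11 and 0.181 CPM in the other tumor cells.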

Other observations

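Other gene groups differed in a few members each, all as summed levels of cluster 11 over all other tumor tissue cells and with no test. Of all measured genes 6.14% were higher and 2.88% lower in that comparison. Of 9 measured CXC chemokine genes 2 were higher and 3 lower. Cxcl14 had 35.6 CPM in cluster 11 and 9.88 CPM in the other tumor cells (3.60-fold higher; 1.28-fold against cells of similar depth, and cluster 3 had 20.1 CPM) and Pf4 is the other higher one. On the lower side, Cxcl9 had 80.8 and 235 CPM (2.91-fold lower), Cxcl11 7.30 and 37.5 CPM (5.14-fold lower) and Cxcl10 was lower too. Cx3cr1, the fractalkine receptor gene, had 221 CPM in cluster 11 and 81.2 CPM in the others (2.72-fold higher). Of 11 measured interleukin-1 family and inflammasome genes 3 were lower and none higher: Il1a, Casp4 and Il1r2, the decoy receptor gene, which had 41.0 and 104 CPM (2.55-fold lower).

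The 2 arginase genes went opposite ways. Arg1 had 1187 CPM in cluster 11 and 526 CPM in the other tumor cells (2.25-fold higher), and Arg2, the mitochondrial form, 16.25 and 53.6 CPM (3.30-fold lower). Of 31 measured macrophage transcription factor genes 4 were higher and none lower, where 6.14% of all measured genes were higher. These were Maf at 183 and 78.0 CPM (2.34-fold higher), Nr1h3, which encodes the liver X receptor alpha, at 50.2 and 23.2 CPM (2.16-fold higher), Cebpa (2.03-fold higher) and Egr2 (2.003-fold higher). Cebpa and Nr1h3 stood at 1.24-fold and 1.68-fold against cells of similar depth, and the call of Egr2 ended under 4 alternatives. Among 18 scavenger receptor and lectin genes 4 were higher and 2 lower, the lower ones being Cd209a, at 3.30 and 24.8 CPM (7.53-fold lower), and Clec4e, at 203 and 465 CPM (2.29-fold lower). Tfrc, the transferrin receptor gene, had 25.9 CPM in cluster 11 and 9.58 CPM in the other tumor cells (2.70-fold higher). The calls of Arg1, Cx3cr1, Tfrc, Cd209a, Clec4e, Il1a and Casp4 ended against cells of similar depth, that of Cd209a through the minimums. None of 8 Toll-like receptor genes with Cd14 passed 2-fold.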
